A study of Arabidopsis thaliana with 22 samples.

Results

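The 33 genes described here carry carbon from phenylalanine to lignin in Arabidopsis thaliana. They were taken by name from a fixed list, which was drawn up with earlier results of these data known, and fall into 4 steps. The upper pathway holds 9 genes (PAL1 to PAL4, C4H, 4CL1 to 4CL3 and 4CL5), the monolignol steps hold 9 (among them HCT, CYP98A3, CSE, CCOAOMT1, CCR1, FAH1, CAD4 and CAD5), and polymerisation holds 6 laccases and 9 class III peroxidases. All 33 were among the 33323 genes of the deposited table and all 33 passed the filter on low counts, as did 21683 genes in all. RNA came from the upper primary root of 14-day-old seedlings, a 1.5 cm stretch below the hypocotyl without its lateral roots, and each library pooled about 40 seedlings. Wild type (WT, Col-0) was compared with the mutant myb67-1 in the Col-0 background, grown on the same plates without treatment. Experiment 1 gave 6 libraries of each genotype and experiment 2 gave 5 of each, 22 in all.

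Lignin is made when phenylalanine is deaminated and hydroxylated to p-coumaroyl-CoA, turned into monolignols in the cytoplasm, and joined into a polymer in the cell wall by laccases and peroxidases. In roots it stiffens xylem vessels and seals the Casparian strip of the endodermis, and the same upper steps feed the aromatic part of suberin in endodermis and phellem, the cork layer. MYB67 is a transcription factor of the R2R3-MYB family, and other members of that family are known regulators of lignin genes.

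Libraries of experiment 1 held 3705515 to 17727642 counts and those of experiment 2 held 23190477 to 32091009. The 33 genes together took 0.394% to 0.602% of them. WT replicate 1 of experiment 1 was the shallowest library and gave 27.7% of its counts to the ribosomal RNA gene AT3G41768. WT replicates 3 and 6 of experiment 1 stood apart by their photosynthesis genes. Their level summed over 6 such genes, in library-scaled counts (CPM), was 807 and 1072. The remaining 10 libraries of experiment 1 had 214 to 325 CPM, and experiment 2 had 1136 to 2000 CPM. The root genes PYK10 and TIP2;2 summed to 10090 to 13290 CPM in all libraries. MYB67 itself was higher in the libraries labelled myb67, at 9.997 to 14.6 CPM against 5.95 to 7.18 in WT of experiment 1, and at 14.6 to 23.8 against 6.68 to 13.6 in experiment 2 (log2 fold change 0.79, standard error (SE) 0.11, edgeR adjusted p = 6.89e-05). What the mutation does to the transcript is absent from the labels, so this level is no check of the genotypes.

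Of the 33 genes, 1 was lower in myb67 over both experiments and 0 were higher, in the fit without replicate pairs. The lower gene was CCR1, which encodes the cinnamoyl-CoA reductase that opens the branch committed to monolignols. Genes were tested by edgeR's quasi-likelihood F test, with a term for the experiment and Benjamini-Hochberg adjustment over all genes tested, and a gene was called at an adjusted p under 0.05. Over all genes tested, 1.50% were called, 0.816% higher and 0.687% lower. At an unadjusted p under 0.05 there were 5 of the 33 (CCR1, FAH1, 4CL5, LAC5 and PRX4), or 15.2%, against 7.31% of all genes. The 33 genes were chosen with earlier results of these data known, so no share of them here or below is a test of the set. DESeq2 and limma-voom each called LAC5 higher beside CCR1 lower, where they called 1.96% (1.06% higher, 0.904% lower) and 1.78% (1.01% higher, 0.779% lower) of all genes. In the authors' deposited table the same pair had an adjusted p under 0.05, among 1.58% of its genes, with 0.00144 for CCR1 and 0.0214 for LAC5. The edgeR counts above leave out the replicate pairs of experiment 2, which were found in the data and are described under the processing. With these pairs in the edgeR fit, CCR1, FAH1 and 4CL5 were called lower and LAC5 higher. That fit called 1.11% of all genes lower and 1.10% higher.

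Most of the pathway sat close to no change. The median log2 fold change of the 33 genes was -0.01, beside 0.00 over all genes. By step it was -0.01 in the upper pathway, -0.02 in the monolignol steps, 0.06 in the laccases and -0.07 in the peroxidases. Levels summed within a step and divided by exon length did not separate the genotypes either. The monolignol steps, for example, summed to 1310 ± 96.6 CPM per kb in WT and 1340 ± 52.3 in myb67 of experiment 1 (SD, n = 6), and to 1050 ± 35.1 and 1060 ± 83.0 in experiment 2 (SD, n = 5). Replicates of 1 group varied about as much for these genes as for others, with a median residual SD of 0.18 on the log2 scale against 0.19 over all genes. In bulk tissue, fewer cells of a type and less RNA per cell cannot be told apart.

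**Figure D1:**
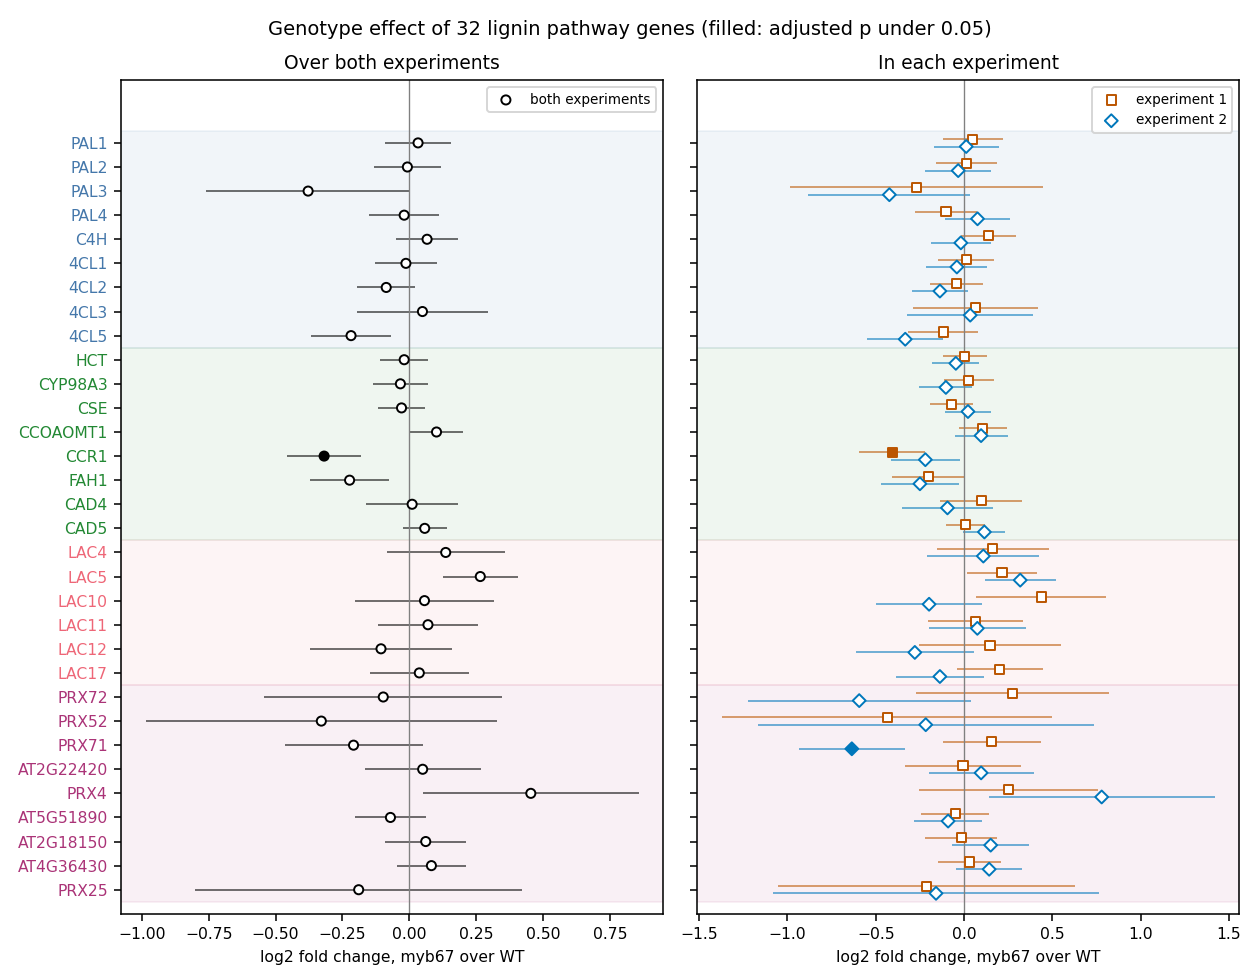
Log2 fold change of myb67 over WT (horizontal axis) for 32 of the 33 genes (rows, shaded by step), with 95% intervals (1.96 SE), over both experiments on the left and in each experiment on the right. Filled points passed the adjusted p of 0.05 in the fits without replicate pairs, which were CCR1 over both and in experiment 1, and PRX71 in experiment 2.

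In the upper pathway 0 of 9 genes were called in the fits without replicate pairs. PAL1 and PAL2, the main phenylalanine ammonia-lyases of the root, and C4H, the cinnamate 4-hydroxylase, were its most abundant members in WT of experiment 1, at 270 ± 26.6, 159 ± 13.9 and 232 ± 17.1 CPM per kb of exon (SD, n = 6). Their fold changes were small and narrow. On the log2 scale they were 0.03 (SE 0.06) for PAL1, -0.01 (SE 0.06) for PAL2 and 0.07 (SE 0.06) for C4H, which with 95% intervals leaves PAL1 between -0.09 and 0.15. PAL4 (-0.02), 4CL1 (-0.01), 4CL2 (-0.09) and 4CL3 (0.05) also had intervals that held 0. PAL3 was low, at 0.217 ± 0.141 CPM per kb in that group and 0.655 ± 0.151 in WT of experiment 2 (SD, n = 5). It had a fold change of -0.38 (SE 0.19, edgeR adjusted p = 0.754) and was lower in myb67 in 5 of 5 pairs of experiment 2. PAL1 and PAL2 each had 31 stretches of 50 bases that occur more than once in the genome, 1.09% and 1.11% of those in their exons. The peroxidase AT2G18150 had the most such stretches (38, or 3.15%). How reads of shared stretches were assigned is not stated, so their part in these levels was not tested.

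The 4-coumarate:CoA ligase gene 4CL5 (AT3G21230) had the lowest p of the upper pathway. In experiment 1 its lowest, median and highest values were 46.6, 51.4 and 54.0 CPM in WT and 44.8, 46.2 and 51.3 CPM in myb67. In experiment 2 replicates 1 to 5 had 19.1, 24.3, 17.1, 22.1 and 27.3 CPM in WT and 13.2, 19.1, 15.4, 20.3 and 19.1 CPM in myb67. The genotypes overlapped in both experiments, yet myb67 was lower than the WT library of the same number in 5 of 5 pairs of experiment 2. The fold change over both was -0.22 (SE 0.08, edgeR adjusted p = 0.287). Replicate numbers pair the libraries of experiment 2, as laid out under the processing, and with these pairs in the fit 4CL5 was called (-0.22, SE 0.05, adjusted p = 0.0153). That fit called 2.21% of all genes, 1.10% higher and 1.11% lower. In experiment 2 it gave -0.33 for 4CL5 (SE 0.06, adjusted p = 0.00249).

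CCR1 (AT1G15950, chromosome 1, 5478603 to 5482180 on the plus strand of TAIR10.1) was the lower gene of the monolignol steps. In experiment 1 the lowest, median and highest values were 93.5, 115 and 155 CPM in WT and 69.7, 89.0 and 101 CPM in myb67. In experiment 2 the WT replicates had 203, 188, 189.9, 166 and 188 CPM and the myb67 replicates 169.6, 167, 159, 160.0 and 148 CPM. The groups overlapped in both experiments, in experiment 2 because WT replicate 4 lay below myb67 replicates 1 and 2, while all 5 pairs had the lower value in myb67. The means were 117 ± 21.9 and 87.3 ± 10.4 CPM (SD, n = 6) in experiment 1 and 187 ± 13.5 and 161 ± 8.32 CPM (SD, n = 5) in experiment 2.

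The log2 fold change of CCR1 was -0.32 (SE 0.07, edgeR adjusted p = 0.0152) over both experiments, -0.41 (SE 0.10, adjusted p = 0.0498) in experiment 1 and -0.22 (SE 0.10, adjusted p = 0.562) in experiment 2. It was the single member called in experiment 1, where 0.623% of all genes were (0.314% higher, 0.309% lower), and 3 of the 33 had an unadjusted p under 0.05 (9.09%, against 8.65% of all genes). With the pairs of experiment 2 in the fit the effect in experiment 1 was -0.40 (SE 0.10, adjusted p = 0.0418), where 1.29% of all genes were called and 0.604% were called lower. Experiment 1 has no pairs in that fit. Its effect rests on the same libraries as before, so this fit adds no separate support. Fitted on its own, experiment 1 gave no call for CCR1. The difference between the experiments was 0.19 (SE 0.14, adjusted p = 0.746). Over both experiments the call held in each of the 22 fits that left out 1 library, with adjusted p from 0.00673 to 0.0287. In experiment 1 it was lost in 17 of them, with fold changes from -0.46 to -0.33. The 5 libraries without which it held were WT replicates 2 and 3 and myb67 replicate 1 of experiment 1, and WT replicate 4 and myb67 replicate 1 of experiment 2.

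CCR1 shares its 3′ end with a gene on the other strand. NRAMP6 (AT1G15960), a metal transporter of the NRAMP family, overlaps 473 bases of CCR1 exons, or 24.2% of their length. The sources used here do not say whether counting used strand, so reads of the shared stretch cannot be told apart. NRAMP6 was also the gene whose deviations from group means were most like those of CCR1 over the 22 libraries (Pearson r = 0.919), ahead of AT3G16760 (0.893) and FTSH1 (AT1G50250, 0.884). Its own fold change was -0.24 (SE 0.08, edgeR adjusted p = 0.232). The ratio of CCR1 to NRAMP6 CPM ran from 3.15 to 3.74 in WT and from 2.84 to 3.69 in myb67 of experiment 1, and from 2.59 to 2.74 and from 2.55 to 2.69 in experiment 2. These ranges overlapped between genotypes. Ratios of replicates 1 to 5 in experiment 2 were 2.73, 2.73, 2.59, 2.74 and 2.68 in WT. Those of myb67 were 2.56, 2.69, 2.57, 2.55 and 2.61, lower than WT in each pair. No test was made of the ratio.

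FAH1 (AT4G36220), the ferulate 5-hydroxylase that leads to syringyl units, ran the same way as CCR1 without passing the test. Its lowest, median and highest values in experiment 1 were 52.1, 65.1 and 70.8 CPM in WT and 51.1, 53.9 and 61.7 CPM in myb67. In experiment 2 replicates 1 to 5 had 20.6, 29.6, 22.1, 21.3 and 23.3 CPM in WT and 17.7, 26.2, 19.97, 18.9 and 15.7 CPM in myb67. The genotypes overlapped in both experiments and myb67 was lower in 5 of 5 pairs. The fold change was -0.22 (SE 0.08, edgeR adjusted p = 0.259), which became a call with the pairs in the fit (-0.23, SE 0.05, adjusted p = 0.0204). Leaving out myb67 replicate 2 of experiment 2 also gave a call (-0.28, adjusted p = 0.0400).

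The other 7 monolignol genes were not called and had narrow intervals. CCOAOMT1, the caffeoyl-CoA O-methyltransferase, was the most abundant of the 33 per length in WT of experiment 1 (494 ± 47.6 CPM per kb, SD, n = 6) and had a fold change of 0.10 on the log2 scale (SE 0.05, edgeR adjusted p = 0.720). HCT (-0.02), CYP98A3 (-0.03) and CSE (-0.03), which together make the caffeoyl intermediate, and the cinnamyl alcohol dehydrogenases CAD4 (0.01) and CAD5 (0.06) lay between -0.03 and 0.06.

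Without replicate pairs in the fit, none of the 6 laccases was called by edgeR over both experiments, in either experiment or for the difference. Their fold changes were above 0 in 6 of 6 in experiment 1 (median 0.18 on the log2 scale) and in 3 of 6 in experiment 2 (median -0.03). LAC4 and LAC17, the laccases best known for lignin of the stem, had fold changes of 0.14 (SE 0.11) and 0.04 (SE 0.09). LAC11, which acts beside them, had 0.07 (SE 0.10), and LAC12 had -0.11 (SE 0.14). LAC10 was at 0.44 (SE 0.19) in experiment 1 and -0.20 (SE 0.15) in experiment 2, a difference of -0.64 (SE 0.24, edgeR adjusted p = 0.454). LAC17 shares 24.2% of its exon length with AT5G60022 on the other strand, whose reads cannot be told apart from it.

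LAC5 (AT2G40370) was the laccase with the lowest p. In experiment 1 its lowest, median and highest values were 43.3, 44.6 and 59.3 CPM in WT and 45.1, 57.2 and 68.1 CPM in myb67. In experiment 2 replicates 1 to 5 had 91.8, 75.3, 93.0, 73.8 and 67.3 CPM in WT and 94.9, 98.9, 101, 102 and 103 CPM in myb67. All 5 myb67 libraries of experiment 2 lay above all 5 of WT. The genotypes did not overlap in experiment 2 for 1 of the 33 genes and for 1.84% of all genes, in experiment 1 for 0 of the 33 and 1.13%, and in both, in the same direction, for 0 of the 33 and 0.304%. The fold change over both was 0.27 (SE 0.07, edgeR adjusted p = 0.0659), and it was 0.22 (SE 0.10) in experiment 1 and 0.32 (SE 0.10) in experiment 2. DESeq2 gave an adjusted p of 0.0176, limma-voom 0.0195 and edgeR with the pairs of experiment 2 0.0418. Leaving out 1 library at a time moved the edgeR adjusted p from 0.0179 to 0.136, and it passed without WT replicate 1, WT replicate 6 or myb67 replicate 6 of experiment 1 and without WT replicate 1 or 3 of experiment 2.

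**Figure D2:**
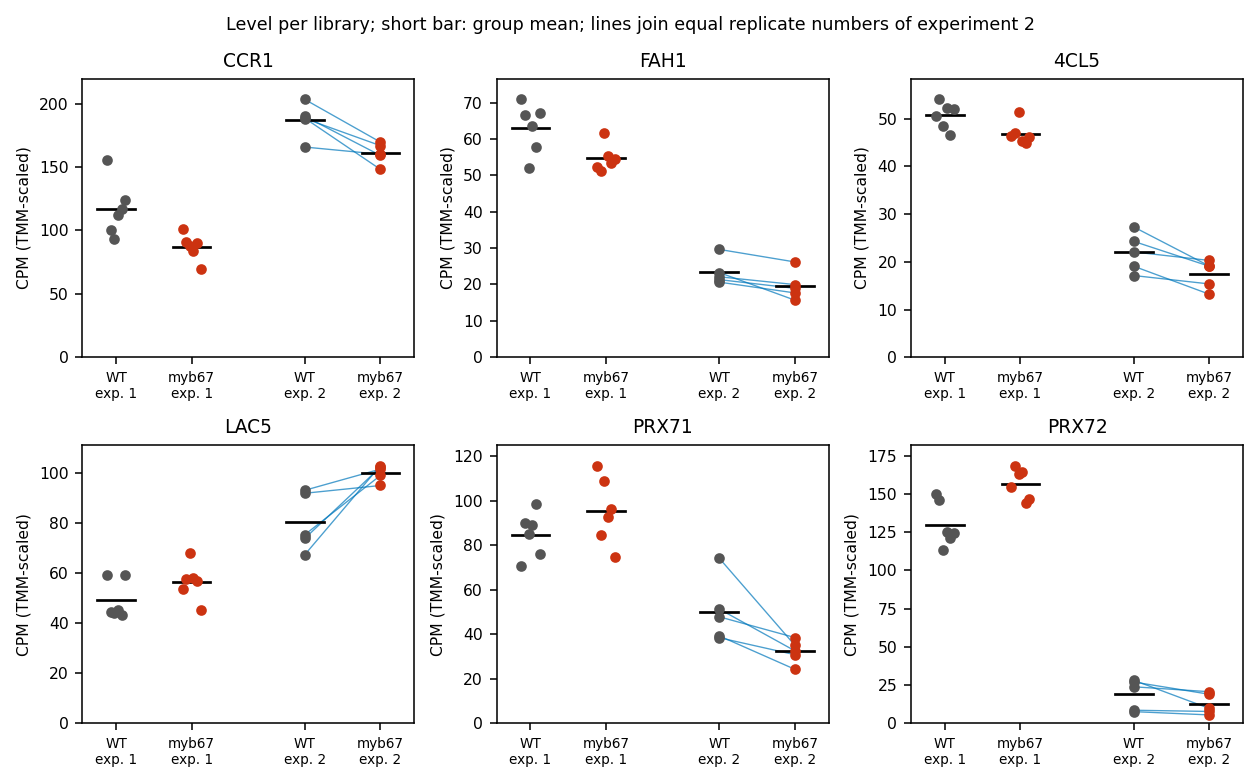
CPM (vertical axis, from 0) of 6 genes chosen after their values were seen, each called in at least 1 of the fits in the text, 1 point per library, grey for WT and red for myb67, with a bar at each group mean. Lines join libraries of the same replicate number in experiment 2, which fall from WT to myb67 in all 5 pairs for CCR1, FAH1, 4CL5, PRX71 and PRX72 and climb in all 5 for LAC5.

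Among the 9 peroxidases, PRX71 (AT5G64120), known as a modifier of lignin and cell growth, was called lower in experiment 2, where 1.33% of all genes were called (0.623% higher, 0.706% lower) and 6 of the 33 had an unadjusted p under 0.05 (18.2%, against 8.25% of all genes). In experiment 2 replicates 1 to 5 had 39.3, 38.4, 51.3, 47.8 and 74.1 CPM in WT and 24.3, 30.8, 32.6, 38.5 and 35.1 CPM in myb67. In experiment 1 the lowest, median and highest values were 70.4, 87.0 and 98.6 CPM in WT and 74.7, 94.5 and 116 CPM in myb67. Only myb67 replicate 4 reached into the WT range of experiment 2, and in experiment 1 the genotypes overlapped. The log2 fold change was -0.64 (SE 0.15, edgeR adjusted p = 0.0360) in experiment 2, 0.16 (SE 0.14, adjusted p = 0.846) in experiment 1 and -0.21 (SE 0.13, adjusted p = 0.888) over both. The call in experiment 2 was lost in 6 of 22 fits that left out 1 library. The libraries were replicates 3, 4 and 5 of WT and 1, 2 and 3 of myb67, all of experiment 2, and without WT replicate 5 the fold change was -0.45 (adjusted p = 0.154).

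PRX72 (AT5G66390), a peroxidase of lignifying walls, moved apart in the experiments. In experiment 1 the lowest, median and highest values were 114, 125 and 150.0 CPM in WT and 144, 159 and 169 CPM in myb67. In experiment 2 replicates 1 to 5 had 7.67, 23.9, 8.58, 27.0 and 28.2 CPM in WT and 5.51, 20.7, 7.78, 19.0 and 9.77 CPM in myb67. The genotypes overlapped in both, while within the pairs myb67 was lower in 5 of 5. The fold change was 0.27 (SE 0.28) in experiment 1 and -0.59 (SE 0.32, edgeR adjusted p = 0.715) in experiment 2, and with the pairs in the fit the latter was called (-0.58, SE 0.13, adjusted p = 0.0106), where 4.84% of all genes were, 1.50% higher and 3.34% lower. Fitted alone with its pairs, experiment 2 gave no call for PRX72 (-0.59, SE 0.16, adjusted p = 0.0527). The log2 ratio was -1.53 in pair 5 and -0.51 to -0.14 in the others. The WT library of pair 5 had 73.5 CPM of summed endodermis markers and its myb67 library 54.5 CPM.

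The remaining peroxidases were not called. PRX4 had the largest upward fold change of the 33, 0.45 (SE 0.21, edgeR adjusted p = 0.613), from 17.0 ± 4.55 to 19.5 ± 5.57 CPM in experiment 1 (SD, n = 6) and from 1.86 ± 0.662 to 3.14 ± 1.65 CPM in experiment 2 (SD, n = 5). AT2G18150 (0.06) and AT4G36430 (0.08), AT2G22420 (0.05) and AT5G51890 (-0.07) had SEs of 0.07 to 0.11. PRX25 (-0.19, SE 0.31) and PRX52 (-0.33, SE 0.33) were too variable to bound closely.

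The difference of the genotype effect between experiments passed for 0 of the 33 genes with edgeR, where it passed for 0.0692% of all genes, 0.0507% higher and 0.0184% lower. At an unadjusted p under 0.05 there were 2, PRX71 and LAC10, and DESeq2 and limma-voom called 0. With the pairs of experiment 2 in the fit, 2.64% of all genes passed (0.738% higher, 1.90% lower), and PRX72 (-0.86, SE 0.17, adjusted p = 0.00752) and PRX71 (-0.76, SE 0.15, adjusted p = 0.00821) were among them, both lower in experiment 2 relative to experiment 1. Over the 5 pairs, 6 of the 33 genes (18.2%) were lower in myb67 in every pair, which were PAL3, 4CL5, CCR1, FAH1, PRX72 and PRX71, against 9.09% of all genes. LAC5 alone (3.03%) was higher in every pair, against 8.66% of all genes. The comparison over both experiments with the pairs called 3 of the 33 lower, CCR1, FAH1 and 4CL5, and LAC5 higher. Fitted alone with its pairs, experiment 2 had LAC5 higher and 4CL5, CCR1, FAH1 and PRX71 lower, where 7.39% of all genes were called, 3.00% higher and 4.40% lower.

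The experiments differed more than the genotypes. In WT, 10 of the 33 genes had all 5 libraries of experiment 2 above all 6 of experiment 1, and 13 had them below, where 26.1% and 24.8% of all genes did so. Among the 9 peroxidases AT2G18150 was at 108 ± 14.9 CPM per kb in experiment 1 (SD, n = 6) and 420 ± 68.2 in experiment 2 (SD, n = 5), and AT4G36430 at 86.3 ± 3.48 and 399 ± 43.0, which made them the most abundant of the 33 per length in experiment 2. PRX72 went the other way, from 130.0 ± 14.5 CPM (SD, n = 6) to 19.1 ± 10.12 CPM (SD, n = 5), a ratio of 6.82. Of the 13 genes that were below, PRX4, CAD4, PRX25, FAH1 and 4CL5 had ratios of 9.14, 3.57, 3.18, 2.69 and 2.31, and the other 7 had smaller ones. LAC4, LAC5, LAC10 and LAC12 were higher in experiment 2, by 1.74, 1.63, 2.65 and 1.70-fold, while LAC17 was lower by a ratio of 1.31 and LAC11 overlapped. In myb67 the ratios were 12.5 for PRX72, 6.22 for PRX4, 3.17 for PRX25 and 4.08 for CAD4 among the genes lower in experiment 2. Among those higher they were 5.02 for AT4G36430 against 4.62 in WT, and 1.72 for LAC10 against 2.65. No test was made of the experiments, since the deposited values of experiment 1 come in steps of 0.5 and those of experiment 2 are whole, and how growth and counting share in the gap cannot be told apart.

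**Figure D3:**
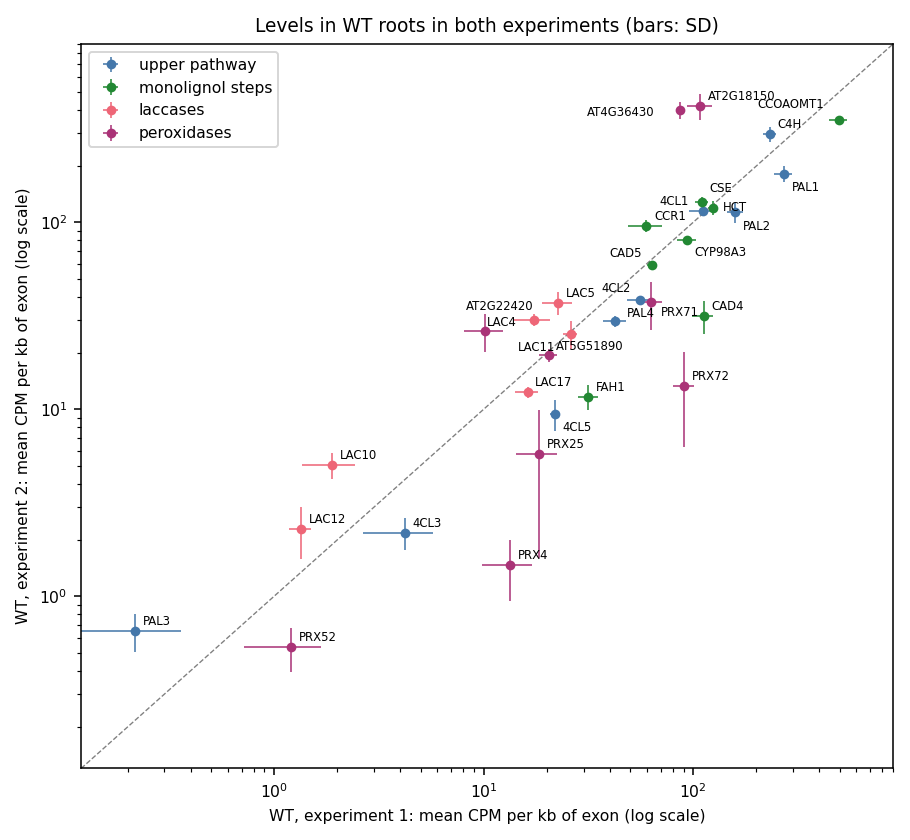
Mean level in WT in experiment 1 (horizontal) and experiment 2 (vertical), in CPM per kb of exon on log axes, 1 point for each of 32 genes coloured by step, with SD bars and a dashed line of equal level. AT2G18150 and AT4G36430 lie above the line, at 420 and 399 in experiment 2, and PRX72 and PRX4 lie below it, at 13.3 and 1.47.

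Summed cell type markers also differed between the experiments. The 7 endodermis markers (CASP1 to CASP5, ESB1 and MYB36) summed to 238 to 538 CPM in WT of experiment 1 and to 45.6 to 88.1 CPM in WT of experiment 2. The 4 phloem markers summed to 173 to 193 and 449 to 537 CPM. For the 8 xylem markers the sums in WT were 337 to 386 CPM in experiment 1 and 409 to 518 CPM in experiment 2. For the 6 markers of suberised cells they were 606 to 735 and 650 to 992 CPM, which overlap. Between genotypes in experiment 2, 6 of 7 endodermis markers had a fold change below 0 (median -0.47) and 0 were called, with summed levels of 45.6 to 88.1 CPM in WT and 46.5 to 93.0 CPM in myb67. In experiment 1 they were above 0 in 6 of 7 (median 0.12), also with 0 called. The 6 photosynthesis genes were below 0 in 6 of 6 in experiment 1, all at an unadjusted p under 0.05 (median -0.83), and CAB3 was called (-2.91, SE 0.65, edgeR adjusted p = 0.0327). They summed to 275 to 1072 CPM in WT and 214 to 289 CPM in myb67 there, and in experiment 2 they were above 0 in 6 of 6 with 0 called. The 8 xylem markers were above 0 in 8 of 8 over both experiments (median 0.09), with 0 called. Of the 6 markers of suberised cells 3 were called higher and 1 lower over both experiments, where 0.816% of all genes were called higher and 0.687% lower. The part of these cell types in the results for the pathway genes was not tested.

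Co-variation within groups was described next. Taking each library's deviation from its group mean on the log2 scale, 528 pairs of the 33 genes were correlated over 22 libraries, and 68 passed a Benjamini-Hochberg adjusted p of 0.05 (100000 permutations within groups, with the pairs of experiment 2 moved together). The median Pearson r was 0.48 within the upper pathway (-0.52 to 0.97), 0.39 between it and the monolignol steps (-0.45 to 0.81) and 0.31 within the monolignol steps (-0.39 to 0.76). It was 0.52 among the laccases (-0.04 to 0.81) and 0.06 among the peroxidases (-0.54 to 0.70). Between laccases and the upper pathway it was -0.07. Libraries share depth and scaling, so these values describe co-variation and are not independent of one another.

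PAL1 and PAL2 went together most closely (Pearson r = 0.971, Spearman rho = 0.957, permutation p = 1e-05 for both, the smallest these permutations can give, adjusted p = 0.00264 and 0.00528, r = 0.950 without the 2 farthest libraries). In experiments 1 and 2 alone r was 0.941 and 0.991. 4CL1 and 4CL2 had r = 0.860 (rho = 0.866, permutation p = 1e-05 and 3e-05, adjusted p = 0.00264 and 0.00792) with 0.849 and 0.896 within experiments and 0.806 without the 2 farthest. LAC4 and LAC17 had r = 0.809 (rho = 0.796, permutation p = 6e-05 and 7e-05, adjusted p = 0.00754 and 0.0123) with 0.953 and 0.617 within experiments and 0.792 without the 2 farthest. CCR1 went with the peroxidase AT5G51890 (r = 0.755, rho = 0.754, permutation p = 0.00029 and 0.00022, adjusted p = 0.0113 and 0.0185), at 0.838 in experiment 1, 0.340 in experiment 2 and 0.659 without the 2 farthest. WT replicate 1 of experiment 1, the shallowest library, was the highest of its group for both CCR1 (155.4 CPM) and AT5G51890 (30.46 CPM). For every pair the 2 farthest libraries were chosen by 1 of its genes alone. AT2G22420 ran against PAL1 (r = -0.731, rho = -0.735, permutation p = 0.00051 and 0.0014, adjusted p = 0.0158 and 0.0393), at -0.728 and -0.757 within experiments and -0.659 without the 2 farthest.

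**Figure D4:**
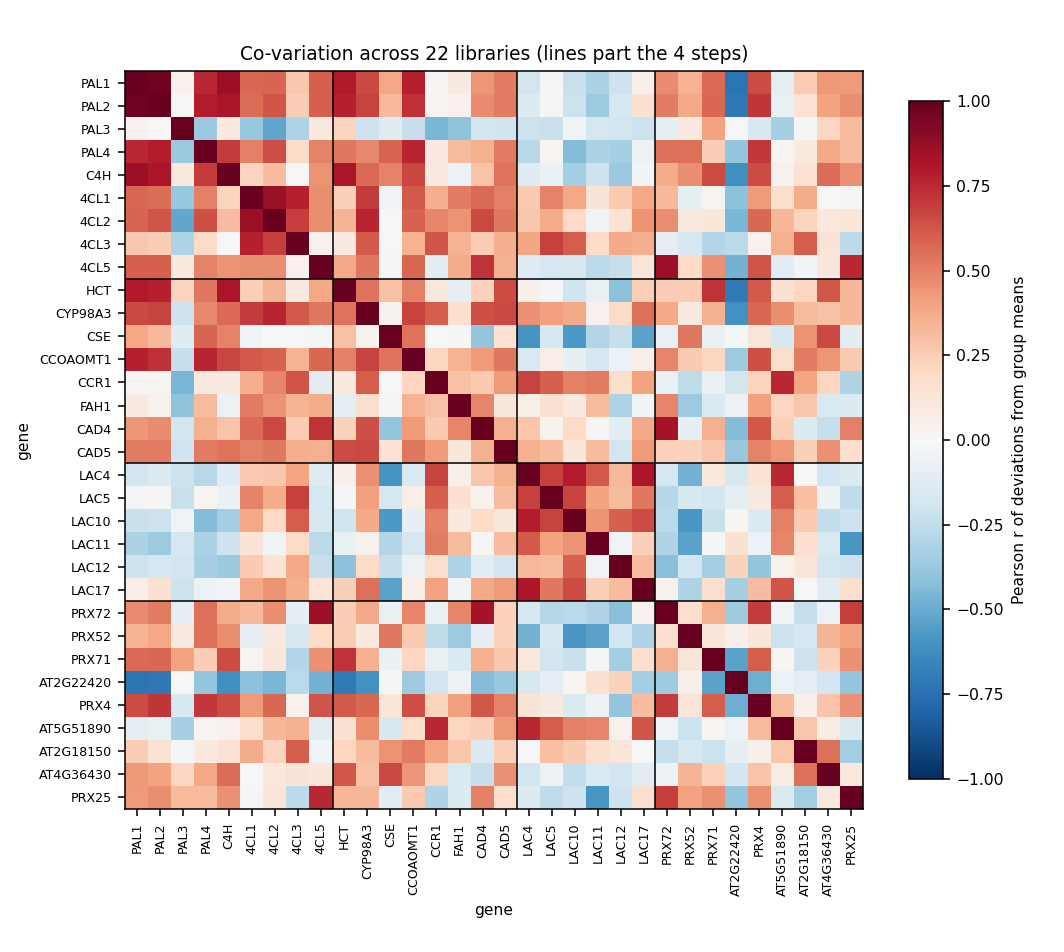
Pearson r between 32 of the 33 genes (both axes, in order of the pathway) of deviations from group means on the log2 scale over 22 libraries, from blue (-1) to red (1), with lines between the 4 steps. The median r was 0.48 within the upper pathway, 0.31 within the monolignol steps and 0.52 within the laccases, with pairs of negative r in each.

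In experiment 2, PRX72 and CAD4 were lower in the libraries with lower endodermis markers. The libraries were parted into 2 sets after these values were seen, so the gap between the sets is no test. How many other genes part the same way was not counted. Both libraries of pairs 1 and 3 lie in the lower set, so the sets are not independent of the pairing. Replicates 1 and 3 of both genotypes and myb67 replicate 5 had 45.6 to 54.5 CPM of summed endodermis markers and 5.51 to 9.77 CPM of PRX72. The other 5 libraries had 73.5 to 93.0 CPM of the markers and 19.0 to 28.2 CPM of PRX72. CAD4 stood at 43.7 to 51.8 CPM in the first set and at 59.6 to 69.1 CPM in the second. With 5 libraries in a set, no correlation is given there. Within the 12 libraries of experiment 1 the deviations of PRX72 and the endodermis markers had r = 0.828 (rho = 0.874, permutation p = 0.00073 and 0.00056, adjusted p = 0.120 and 0.0924 over 165 relations of members with marker lists), and r = 0.703 without the 2 farthest libraries. For CAD4 it was 0.422 (rho = 0.420, permutation p = 0.186 and 0.156, adjusted p = 0.504 and 0.573) and 0.085 without the 2 farthest. None of the 165 relations passed the adjusted p within experiment 1, and 23 had an unadjusted p under 0.05. Over all 22 libraries, 9 of the 165 passed.

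**Figure D5:**
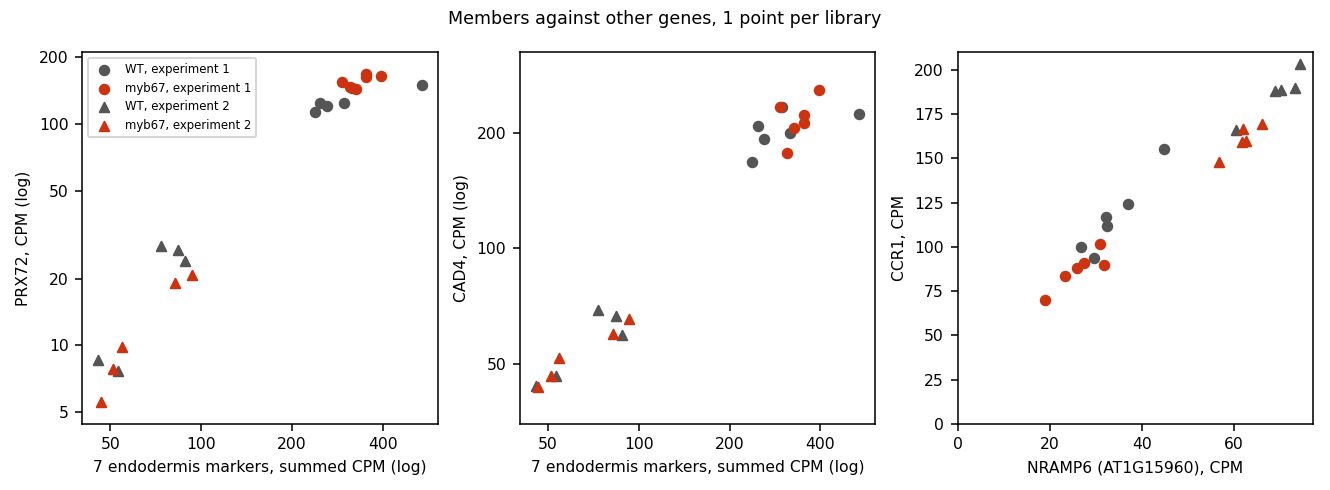
Levels of PRX72 and CAD4 against the summed CPM of 7 endodermis markers (log axes) and of CCR1 against the overlapping gene NRAMP6 (linear axes from 0), 1 point per library, circles for experiment 1 and triangles for experiment 2, grey for WT and red for myb67. In experiment 2 the libraries were parted into 2 sets after their values were seen, with PRX72 at 5.51 to 9.77 CPM in one and 19.0 to 28.2 CPM in the other.

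Of 64 other genes around the pathway, 59 were tested. Over both experiments 1 was called higher and 2 lower, where 0.816% of all genes were called higher and 0.687% lower. At an unadjusted p under 0.05 there were 14 (23.7%, against 7.31% of all genes). The list was drawn up with earlier results of these data known, so these shares are no test of it. The genes that supply phenylalanine (ADT1 to ADT6), the P450 reductases ATR1 and ATR2, the monolignol glucosyltransferases and transporters, the other laccases and the 8 MYB regulators gave 0 calls in that fit. CCR2, a second cinnamoyl-CoA reductase linked to defence, was the gene called higher (0.18, SE 0.04, edgeR adjusted p = 0.0257), opposite in sign to CCR1. Its median was 33.7 CPM in WT and 39.2 in myb67 of experiment 1, where the groups did not overlap, and 48.2 and 55.1 CPM in experiment 2, where they did. CCR2 overlaps AT1G80830 on the other strand by 132 bases, and reads of that stretch cannot be told apart. PRX33, a peroxidase of the apoplastic oxidative burst with a close neighbour in PRX34, was lower (-0.92, SE 0.22, adjusted p = 0.0221), at medians of 1.14 and 0.350 CPM in experiment 1 and 12.6 and 7.88 CPM in experiment 2. PRX34 itself had -0.27 (SE 0.08, edgeR adjusted p = 0.137). In the authors' deposited table the mean signal was 70.35 for PRX33 and 12040 for PRX34. Sequence shared by PRX33 and PRX34 was not counted, so a part of PRX34 reads in the PRX33 values was not tested. FACT, a caffeoyl transferase that makes alkyl caffeates of root waxes, was the other gene called lower (-1.57, SE 0.10, adjusted p = 3.21e-11), with medians of 145 and 42.4 CPM in experiment 1 and 274 and 97.1 CPM in experiment 2.

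In experiment 1 the single call among the 59 was FACT, where 0.309% of all genes were called lower. There 7 had an unadjusted p under 0.05 (11.9%, against 8.65% of all genes). In experiment 2 there were 2 higher and 4 lower, FACT among them, where 0.623% of all genes were called higher and 0.706% lower. At an unadjusted p under 0.05 there were 17 in experiment 2 (28.8%, against 8.25% of all genes). The higher ones were the peroxidases RCI3 (0.49, SE 0.12, edgeR adjusted p = 0.0471) and PRX53 (0.40, SE 0.10, adjusted p = 0.0457). The lower ones were the laccase LAC9 (-0.66, SE 0.15, edgeR adjusted p = 0.0190), the monolignol glucosyltransferase UGT72E1 (-0.76, SE 0.17, adjusted p = 0.0237) and PRX34 (-0.49, SE 0.11, adjusted p = 0.0200). These calls of experiment 2 are named after their values were seen. For the difference between experiments edgeR called 0 of the 59, with 9 at an unadjusted p under 0.05 (15.3%, against 8.81% of all genes).

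Among genes of these lists that were not called over both experiments, MYB85, a regulator of lignin genes, had -0.77 (SE 0.20, edgeR adjusted p = 0.0619). In the authors' deposited table its adjusted p was 0.00987, and that of PRX53 was 0.0365. The edgeR values were, for the PAL-degrading F-box gene KFB01, -0.24 (SE 0.07, adjusted p = 0.104) and for PRX53 0.28 (SE 0.08, adjusted p = 0.107). The glucosyltransferase UGT72E2 had -0.36 (SE 0.12, adjusted p = 0.254), LAC3 0.23 (SE 0.07, adjusted p = 0.188) and CAD9 -0.31 (SE 0.12, adjusted p = 0.422). With the pairs of experiment 2 in the fit, edgeR called UGT72E2 (-0.37, adjusted p = 0.00374) and KFB01 (-0.24, adjusted p = 0.04536) lower. It called PRX53 (0.29, adjusted p = 0.04755) and RCI3 (0.29, adjusted p = 0.04544), also a peroxidase, higher.

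AC elements, the short motifs bound by R2R3-MYB factors in lignin promoters, were read in the 250 bases before each gene's start in RefSeq's TAIR10.1, where all 33 genes matched by locus tag. Searched on both strands were AC-I (ACCTACC), AC-II (ACCAACC) and AC-III (ACCTAAC), which do not contain one another. At least 1 was present for 11 of the 33 genes (33.3%), against 1283 of 20688 tested genes (6.20%). They were found in 2 of 9 upper pathway genes, 5 of 9 monolignol genes, 3 of 6 laccases and 1 of 9 peroxidases. The stretches of the monolignol genes and laccases are printed 5′ to 3′ on the strand of the gene, with the element in capitals, because these steps hold most of them and the called gene CCR1 is one.
HCT: gaacgggtttACCAACCccggatagaa
CYP98A3: aaatcggttcACCAACCccctccctaa
CCOAOMT1: caagagattcACCTACCacggtacact
CCR1: ttcttcttccACCAACCcctcttt
CAD5: ttgtttgttcACCAACCcccgtggacc
LAC10: ataaaaagatACCAACCtacacttagg
LAC11: agagtgattcACCAACCttttcttttc
LAC17: tcaagcaaacACCTAACtctcctttcc
The element of CCR1 (chr1:5478579-5478602, plus strand, stretch cut off at the start of the gene) begins 14 bases before the start, and that of CYP98A3 (chr2:17060658-17060684, minus strand) 22 bases before. Those of HCT, LAC11 and LAC17 begin 90, 61 and 61 bases before, LAC10 has its own at 145, CCOAOMT1 at 213 and CAD5 at 238. The windows of CCR1 and LAC17 overlap another annotated gene, AT1G15940 and AT5G60022. FAH1, 4CL5, LAC5, PRX71 and PRX72 had none of the 3 motifs in this window, and neither a match nor its absence says whether a factor binds.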

How the data were processed

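Bulk mRNA sequencing gave 22 libraries, 6 and 5 per genotype in experiments 1 and 2. The authors deposited 1 table of 33323 genes, with expected counts in steps of 0.5 for experiment 1 and raw counts for experiment 2, neither normalized, and a comparison table with a log2 fold change, an adjusted p-value and a mean signal (scaled counts) per gene. Named in the submitters' processing notes are STAR 2.7.10a, Trimmomatic 0.39, HOMER, FastQC and DESeq2 1.40.1, on TAIR10. The sources used here do not say how strand and shared reads were handled.

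The expected counts were rounded. Genes were kept by filterByExpr of edgeR 4.0.16 on the 4 groups, scaled by TMM, and tested with the quasi-likelihood F test in R 4.3.3, with Benjamini-Hochberg adjustment over 21683 genes. An SE is the fold change divided by the square root of F. Both experiments were fitted together with a term for the experiment. A second fit, of 4 group means, gave each experiment and their difference. Its spread per gene was estimated over all 22 libraries, so the SE of 1 experiment is not that of its own replicates alone. DESeq2 1.42.0 and limma 3.58.1 (voom) were alternatives. The code was tested on simulated data. Levels are TMM-scaled CPM, and a fold change of a low gene depends on few counts. Python 3.11.15, SciPy 1.17.1 and matplotlib 3.10.9 were used for tables and figures. Correlations used log2 CPM with a prior count of 2.

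Whether replicate numbers pair libraries was checked by correlating, across genes, the deviations from group means of same-numbered WT and myb67 libraries. The correlation was 0.285 to 0.671 in experiment 2, above 0.1 in all 5, and -0.158 to 0.0430 in experiment 1, so numbers were taken to pair libraries in experiment 2. The source of the pairing is the data, not the labels. The closest replicates of 1 group had a chi-square per gene of 2.149, so no pair of libraries matched within sampling noise. The labels call the libraries biological replicates.

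Positions, names, exon lengths and upstream sequence come from RefSeq TAIR10.1, matched by locus tag (32835 of 33323 genes). The deposited files hold no coordinates. The 33 genes, the lists of other genes and the alternatives were chosen with earlier results of these data known. 1 of the 33 genes is not reported here by name, though counts and medians include it. Named were the other 32, MYB67, every other pathway gene called over both experiments, up to 2 genes of smallest p per list otherwise, and the 3 genes most like CCR1, whose p was the smallest.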

Additional observations from a re-analysis of the deposited data

Results flagged for a closer look

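The gap of the highest or lowest library from the rest was large for its group in 8 of 132 groups of a gene, where chance flags about 1 group in 20. In experiment 1 the highest libraries were myb67 replicate 3 for 4CL5 (51.28 CPM, the others 44.8 to 46.9), WT replicate 6 for LAC10 (5.714 CPM, others 2.86 to 3.81), WT replicate 3 for AT2G22420 (19.53 CPM, others 11.4 to 14.4) and WT replicate 1, the shallowest library, for AT5G51890 (30.46 CPM, others 23.2 to 25.6). In experiment 2, WT replicate 4 was lowest for LAC11 (34.52 CPM, others 50.1 to 56.3) and WT replicate 1 highest for LAC12 (6.291 CPM, others 3.34 to 3.597). The myb67 replicate 2 of experiment 2 was highest both for AT5G51890 (26.15 CPM, others 21.4 to 22.7) and for AT2G18150 (729.6 CPM, others 627 to 652).

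The genotype effect of 2 peroxidases differed between the experiments by a test of the difference itself, edgeR with the pairs of experiment 2 in the fit. It was lower in experiment 2 by -0.8597 on the log2 scale for PRX72 (adjusted p = 0.00752) and by -0.7625 for PRX71 (adjusted p = 0.00821). Without the pairs neither passed, with adjusted p of 0.574 and 0.294.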

How the results depend on the processing

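Over 1571 values of single genes under other settings, 1544 stayed on the same side of the threshold in the same direction, 9 lost and 18 gained a call, and 0 changed sign once called. Leaving out 1 library at a time gave 2904 values, of which 23 lost and 6 gained a call. Only CCR1 over both experiments, CCR1 in experiment 1 and PRX71 in experiment 2 had a call to lose. All losses fell on these calls, so the totals of 1571 and 2904 do not measure how stable a call was. The losses with 1 library left out were those of CCR1 in experiment 1 and PRX71 in experiment 2. RLE, upper quartile and no filter changed no count of called members. CCR1 over both experiments stayed called in every setting except the fit with no experiment term (-0.30, edgeR adjusted p = 1), which called 0 of the 33 lower and 45 genes higher and 38 lower in all. The call of CCR1 in experiment 1 was at the edge. The count of lower members there fell from 1 to 0 with limma-voom (adjusted p = 0.0895), unrounded values (0.0506), experiment 1 on its own (0.0984), without the 3 libraries of fewest counts (0.234) and without WT replicates 3 and 6 of experiment 1 (0.0521). That of PRX71 in experiment 2 fell from 1 to 0 without the 3 libraries of fewest counts (0.0641), without WT replicates 3 and 6 of experiment 1 (0.0527) and with experiment 2 on its own (0.245). LAC5 made the count of higher members over both 1 in place of 0 with DESeq2, limma-voom, without WT replicates 3 and 6 of experiment 1, and with the block below. Leaving out single libraries gave 0 to 1 higher and 1 to 2 lower members over both, and 0 to 1 lower members in each experiment. The cause was not tested.

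The replicate number as a block in experiment 2, where it pairs the libraries, gave 1 higher and 3 lower members over both, 3 lower in experiment 2, and 2 lower for the difference. The counts over all genes were 241 lower over both, 149 higher and 131 lower in experiment 1 against 68 and 67, 326 higher and 724 lower in experiment 2 against 135 and 153, and 160 higher and 413 lower for the difference against 11 and 4. A block in both experiments gave 3 lower members in experiment 2 (4CL5, PRX71 and PRX72) and 2 for the difference. All genes gave 113 higher and 118 lower calls in experiment 1, then 301 and 679 calls in experiment 2, with 148 and 368 calls for the difference. The block with experiment 2 on its own, chosen after seeing the data, called 1 member higher (LAC5) and 4 lower (4CL5, CCR1, FAH1 and PRX71), with 659 higher and 968 lower genes. The block in experiment 2 changed no call of the 33 genes beyond those of 4CL5, FAH1, LAC5, PRX71 and PRX72.

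Over all genes, DESeq2 called 125 higher and 147 lower in experiment 1 and 24 and 19 for the difference. The difference gave 5 and 1 with limma-voom, 5 and 1 without the 3 libraries of fewest counts, and 7 and 1 without WT replicates 3 and 6 of experiment 1, which also gave 37 higher and 44 lower genes in experiment 1. At least 10 counts in every library left 89 higher genes in experiment 2 and 0 lower for the difference, and experiment 2 on its own gave 65 and 71. Leaving out single libraries moved the genes called in experiment 1 between 51 and 86 higher and 49 and 84 lower. In experiment 2 they ran from 88 higher, without WT replicate 4 of that experiment, to 183. The lower genes of experiment 2 numbered 326 without its WT replicate 1, 100 without WT replicate 5 and 96 without myb67 replicate 1. For the difference 2 genes were lower without WT replicate 4 or 5 of experiment 1, and 7 without WT replicate 1 or myb67 replicate 2 of experiment 2. Low counts limit PAL3 and PRX52 most, and the libraries of experiment 1 are the shallower ones.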
